A study of Mus musculus with 15 samples.

Results

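The immediate early response genes are genes whose transcription starts within minutes of a stimulus and needs no new protein. Their promoters are held ready by serum response factor, its partners and CREB, which are switched on by the ERK, JNK and p38 kinases when a receptor such as the angiotensin receptor signals. Their mRNAs are short lived, because many carry AU-rich letters in the 3′ untranslated region, so a steady level in a tissue reflects both synthesis and decay. Here 10 such genes were followed, as a list of names with no threshold on their values, made with earlier results of these data known: the AP-1 subunits Fos, Fosb, Jun and Junb, the transcription factors Egr1 and Atf3, the nuclear protein gene Ier2, the survival gene Ier3, the mRNA decay factor gene Zfp36 (tristetraprolin) and the phosphatase gene Dusp1 (MKP-1). Of these, 9 had a transcript listed for every mouse, out of 13940 genes with an annotated transcript in all files. Fosb has 7 annotated transcripts and none of them was listed. In all, 7 members passed the filter on low values and were tested among 12372 genes, and Fos and Atf3 lay under it.

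The kidneys came from 15 young adult male C57BL/6 wild-type mice in 3 groups of 5. Control mice carried pumps with saline and received water by gavage. The Ang II group was infused with angiotensin II at 500 ng/kg/min for 28 days, and received the same gavage. The Ang II + QDG group had the same infusion and QDG (Qingda granule, a herbal preparation) at 1.145 g/kg/day. The study asked whether QDG changes the renal injury of hypertension, so 3 comparisons were made: Ang II vs. Control, QDG-treated mice against Ang II, and QDG-treated mice against Control. The Ang II vs. Control comparison and that of QDG-treated mice against Ang II share the 5 Ang II mice, and a chance deviation of those mice would show in both with opposite signs. A long infusion with 1 time point does not follow the minutes-long induction for which these genes are named.

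The implied depth was 75034600 to 81329500 reads per Control mouse, 70697500 to 79291800 per Ang II mouse and 68922600 to 76143500 per Ang II + QDG mouse. The mitochondrial transcripts took 18.5% to 20.7% of all FPKM in the Control mice, 15.4% to 16% in Ang II and 16.9% to 19.8% in Ang II + QDG, and the median log2 fold change over all genes tested was 0.083, −0.019 and 0.059 in the 3 comparisons. All 10 kidney markers, from Lrp2 of the proximal tubule to Aqp2 of the collecting duct, were expressed. Ang II + QDG mouse 4 stood apart: the neutrophil genes S100a8 and S100a9 had 25.9 and 39.3 FPKM there and at most 1.85 and 2.81 FPKM in the other 14 mice. The leukocyte markers Lyz2 (58.0 FPKM), Cd68 (3.48 FPKM) and Adgre1 (3.00 FPKM) were also highest there of all mice, and Ptprc and Csf1r were not. The called member results that rest on this mouse are given with and without it. In tissue RNA, fewer cells of a type and less RNA per cell cannot be told apart.

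The promoters of Jun, Junb and Dusp1, the members on which the comparisons turn, are shown because Jun and Junb were higher and Dusp1 was lower in Ang II. Each run is the 250 bases before the RefSeq start of the gene on GRCm38.p6, read 5′ to 3′ on the minus strand, which is the strand of all 3 genes (chr4:95052223-95052472 for Jun, chr8:84978749-84978998 for Junb, chr17:26508473-26508722 for Dusp1). Capitals mark TGACNTCA, the letters bound by Jun, ATF and CREB dimers, and TGACG, the first 5 letters of its form TGACGTCA.
Jun: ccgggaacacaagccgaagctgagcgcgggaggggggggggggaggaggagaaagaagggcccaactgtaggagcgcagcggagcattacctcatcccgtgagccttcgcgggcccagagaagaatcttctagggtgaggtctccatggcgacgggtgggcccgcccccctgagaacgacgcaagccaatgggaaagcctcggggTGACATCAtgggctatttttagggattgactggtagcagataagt
Junb: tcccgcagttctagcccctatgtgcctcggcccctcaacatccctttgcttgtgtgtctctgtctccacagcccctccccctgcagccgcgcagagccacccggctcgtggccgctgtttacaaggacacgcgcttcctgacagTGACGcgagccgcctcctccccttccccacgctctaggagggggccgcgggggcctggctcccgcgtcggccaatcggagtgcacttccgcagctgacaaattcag
Dusp1: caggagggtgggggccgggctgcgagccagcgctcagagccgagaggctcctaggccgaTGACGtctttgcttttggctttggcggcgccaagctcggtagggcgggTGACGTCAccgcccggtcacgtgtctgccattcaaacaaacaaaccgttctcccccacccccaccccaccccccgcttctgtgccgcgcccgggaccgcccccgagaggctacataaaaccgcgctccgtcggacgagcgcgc
The Jun promoter held TGACATCA at −45 to −38 from the start. The Dusp1 promoter held TGACGTCA at −143 to −136 and another TGACG at −191 to −187, and the Junb promoter held TGACG at −106 to −102. Among the 8 members with an entry that was searched, on both strands, TGACNTCA was in 2 (Jun, Dusp1) and TGACG in 5 (Atf3, Fosb, Junb, Fos, Dusp1, where it is also part of TGACGTCA on both strands). Within these 250 bases the EGR1 letters GCGGGGGCG were in Fosb and Zfp36, a CArG box (the serum response factor site) in Zfp36 alone and TATAAA in Fos alone. Bases farther upstream and the Egr1 promoter were not searched, so a member without a match here may hold such a site elsewhere. Of 32851 mouse promoters of the same length, 7.49% held TGACNTCA, 17.8% TGACG, 2.57% GCGGGGGCG, 1.47% a CArG box and 12.4% TATAAA. These matches describe the sequence and were not measured as bound sites.

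Per length of transcript, the members fell into a group of 6 and a group of 3 that stayed under 2 FPKM in every mouse. By the mean of the 3 group means Ier3 was highest, with 13.2 to 39.1 FPKM over the 15 mice. This mean was 14.1 FPKM for Dusp1, 13.0 for Zfp36, 9.196 for Jun, 8.16 for Junb and 6.09 for Ier2, and then 1.20 for Egr1, 0.601 for Atf3 and 0.533 for Fos. The order differed between groups: in Control Ier3 and Dusp1 both had means of 16.9 FPKM, and in Ang II the Dusp1 mean of 7.69 FPKM was below those of Jun (11.3 FPKM) and Junb (10.4 FPKM). Neighbours in the order overlapped between mice, except Ier2 and Egr1: the lowest Ier2 value was 4.24 FPKM and the highest Egr1 value was 1.79 FPKM. Fos rested on 15 to 148 implied reads per mouse and Atf3 on 42 to 251, against 1400 to 3673 for Jun.

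**Figure D1:**
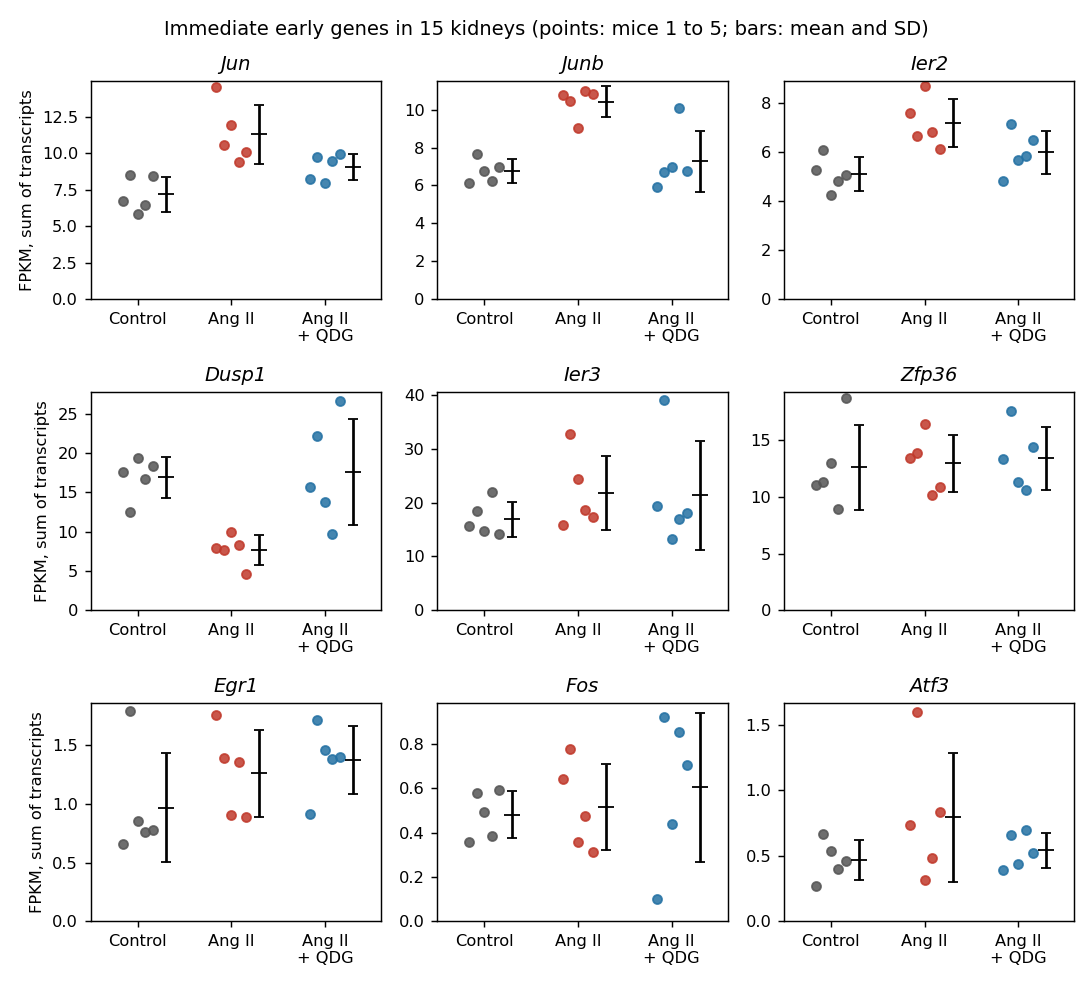
Summed FPKM (y axis, linear, from 0) of the 9 listed members in each kidney, with mice 1 to 5 of each group as points and the group mean with SD as a bar. The 5 Ang II mice lie above all 5 Control mice for Jun, Junb and Ier2 and below all 5 for Dusp1, while the groups overlap for the other members.

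In Ang II vs. Control, 3 of the 7 members tested were higher (Jun, Junb, Ier2) and 1 was lower (Dusp1) at a Benjamini-Hochberg adjusted p under 0.05 from limma. Over all 12372 genes, 4.95% were higher and 0.994% lower by the same rule. The study's criterion for differentially expressed transcripts was a fold change of at least 2 with an unadjusted p under 0.05. Applied here to gene sums on the log2(FPKM + 1) scale with the limma p, it was met by Dusp1 alone among the members. Of all genes 1.05% met it, a share not comparable with the study's counts of transcripts. The 3 higher genes had 1.41 to 1.57 times the Control mean FPKM, and Dusp1 had 0.454 times. The direction of calls over all genes depends on scaling: 612 genes were higher and 123 lower with the deposited scaling, and 227 and 268 after quantile normalization. Jun, Junb and Dusp1 were called under both scalings and Ier2 was not called after quantile normalization (adjusted p = 0.102 from limma) or median scaling (adjusted p = 0.0982 from limma).

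Jun (chromosome 4, 95049034 to 95052222 on GRCm38, minus strand) encodes c-Jun, the AP-1 subunit that also drives its own promoter. Its level was 6.71, 8.53, 5.85, 6.44 and 8.45 FPKM in the Control mice, 14.5, 10.6, 11.97, 9.40 and 10.1 FPKM in the Ang II mice, and 8.24, 9.72, 7.98, 9.46 and 9.99 FPKM in the Ang II + QDG mice. Every Ang II mouse lay above every Control mouse, and the Ang II + QDG mice lay between, overlapping both groups. The Ang II mean of 11.3 ± 2.03 FPKM (SD, n = 5) was 1.57 times the Control mean of 7.19 ± 1.22 FPKM (SD, n = 5). On the log2(FPKM + 1) scale the change was 0.59 (SE 0.12, adjusted p = 0.0165 from limma; exact two-sided permutation p = 0.00794, the smallest that 5 against 5 mice allow). Of the Jun exons, 232 bases (7.3%) are shared with the antisense gene Junos, which the files do not list, and the library kit as labelled does not mark strand.

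Junb (chromosome 8, 84974484 to 84978718, minus strand) encodes the AP-1 subunit that pairs with Fos proteins and activates more weakly than c-Jun. Its level was 6.15, 7.66, 6.76, 6.23 and 6.998 FPKM in the Control mice, 10.8, 10.5, 9.03, 11.01 and 10.9 FPKM in Ang II, and 5.91, 6.70, 6.97, 10.1 and 6.74 FPKM in Ang II + QDG. The Ang II mice were all above the Control mice, and 4 of the 5 Ang II + QDG mice were within or under the Control range. The exception was Ang II + QDG mouse 4, the kidney with the high S100a8, S100a9, Lyz2, Cd68 and Adgre1. The Ang II mean of 10.4 ± 0.804 FPKM (SD, n = 5) was 1.54 times the Control mean of 6.76 ± 0.616 FPKM (SD, n = 5), with a log2 fold change of 0.56 (SE 0.11, adjusted p = 0.0144 from limma; exact two-sided permutation p = 0.00794). Jun and Junb stayed called in all 15 fits that left out 1 mouse, with adjusted p from limma of 0.0136 to 0.0437 and 0.00562 to 0.0397. In a model over all 28812 transcripts, which adjusts over more features, neither was called (adjusted p = 0.0564 for Jun and 0.0509 for Junb from limma), nor was Ier2 (adjusted p = 0.105 from limma).

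Ier2 (chromosome 8, 84661331 to 84662852, minus strand), a nuclear protein gene of the same response, had 5.29, 6.10, 4.24, 4.82 and 5.07 FPKM in the Control mice, and the Ang II mice had 7.59, 6.67, 8.69, 6.84 and 6.14 FPKM. The groups did not overlap, though the lowest Ang II value of 6.14 FPKM and the highest Control value of 6.10 FPKM were almost equal. The log2 fold change was 0.42 (SE 0.11, adjusted p = 0.0398 from limma; exact two-sided permutation p = 0.00794), and the ratio of means was 1.41. This call was the least stable of the 4: it was lost in 10 of 15 fits that left out 1 mouse (adjusted p = 0.0504 to 0.0952 from limma), and held only without Control mouse 2, Ang II mouse 5 or Ang II + QDG mice 1, 2 or 5. Of all genes tested, 6.49% had every Ang II mouse above every Control mouse and 1.42% had every Ang II mouse below.

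Dusp1 (chromosome 17, 26505590 to 26562128, minus strand) encodes the nuclear phosphatase that removes the activating phosphates from p38, JNK and ERK. Its group mean was lower in Ang II than in Control, while those of Jun and Junb were higher, and a link between them was not tested. Its level was 17.6, 12.6, 19.4, 16.8 and 18.4 FPKM in the Control mice, 7.87, 7.66, 9.96, 8.37 and 4.58 FPKM in Ang II, and 15.7, 22.2, 13.7, 9.72 and 26.7 FPKM in Ang II + QDG. By summed FPKM all Ang II mice were below all Control mice, and 4 of the 5 Ang II + QDG mice were above all Ang II mice. Against a Control mean of 16.9 ± 2.62 FPKM (SD, n = 5), the Ang II mean was 7.69 ± 1.96 FPKM (SD, n = 5), a ratio of 0.454. The log2 fold change was −1.07 (SE 0.24, adjusted p = 0.0215 from limma; exact two-sided permutation p = 0.00794). The call was lost without Control mouse 1 (adjusted p = 0.0509 from limma), Control mouse 3 (0.0530) or Ang II mouse 5 (0.0506), and the fold change stayed between −1.16 and −0.92 (log2).

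**Figure D2:**
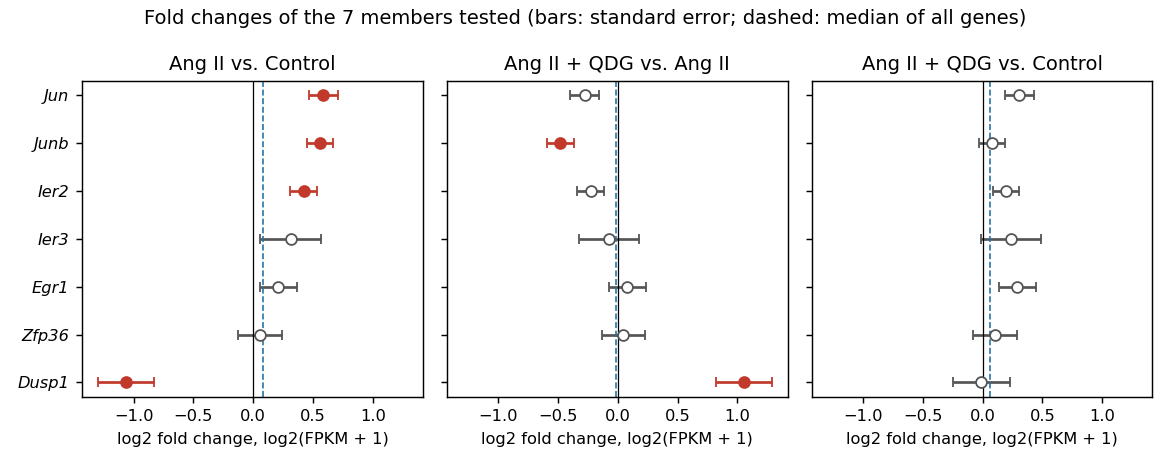
Log2 fold change from log2(FPKM + 1) values (x axis) of the 7 members tested in the 3 comparisons, with standard errors as bars, filled where the adjusted p from limma was under 0.05. In Ang II vs. Control Jun, Junb and Ier2 lie right of 0 and Dusp1 at −1.07, in Ang II + QDG vs. Ang II Junb is at −0.48 and Dusp1 at 1.05, and in Ang II + QDG vs. Control no point is filled. The dashed line is the median over all genes tested.

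The Dusp1 sum joined 2 listed transcripts, the coding transcript and a transcript annotated as a retained intron, which shares exons with it. The coding transcript had 16.9, 4.40, 15.6, 16.5 and 15.01 FPKM in the Control mice, 4.04, 3.83, 6.73, 2.89 and 2.16 FPKM in Ang II, and 10.7, 13.1, 4.31, 5.31 and 24.5 FPKM in Ang II + QDG. It was thus high in 4 of 5 Control mice, low in all Ang II mice and spread widely in Ang II + QDG. The retained-intron transcript had 0.692, 8.17, 3.73, 0.287 and 3.34 FPKM in the Control mice, 3.83, 3.83, 3.22, 5.48 and 2.42 FPKM in Ang II, and 5.03, 9.07, 9.42, 4.41 and 2.17 FPKM in Ang II + QDG. In a model over all 28812 transcripts, the coding transcript differed by −1.52 (log2, SE 0.44, adjusted p = 0.107 from limma) and the retained-intron transcript by 0.48 (SE 0.48, adjusted p = 0.687 from limma) in Ang II vs. Control. The retained-intron transcript made up 1.71% to 65.0% of the sum in Control (mean 21.6% ± 25.5, SD, n = 5), 32.4% to 65.4% in Ang II (mean 49.9% ± 11.8, SD, n = 5) and 8.15% to 68.6% in Ang II + QDG (mean 39.0% ± 21.9, SD, n = 5). The difference of 28.2 percentage points between Ang II and Control did not pass (exact two-sided permutation p = 0.0714). Control mouse 2 had the lowest Dusp1 sum and the highest retained-intron share of its group. The split of shared reads between the transcripts was made upstream of the deposited values and was not tested.

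**Figure D3:**
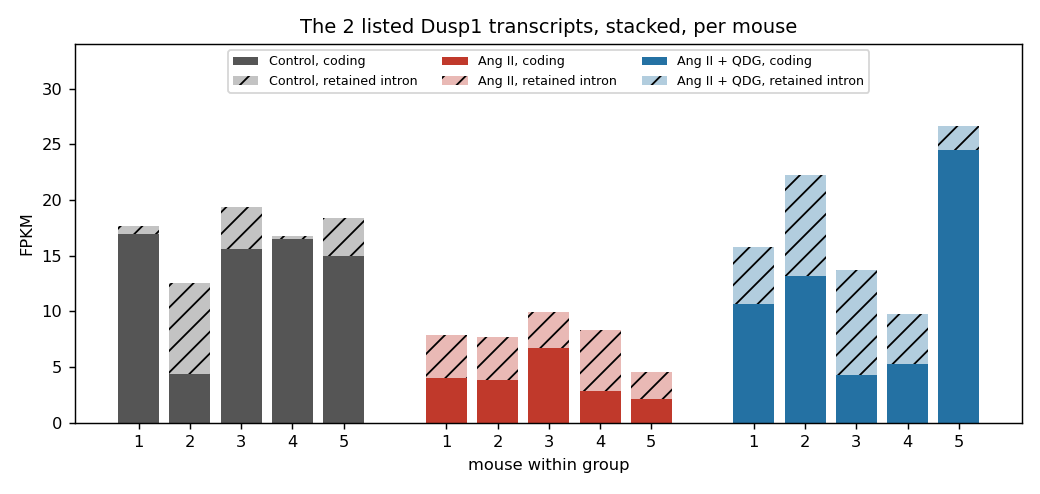
FPKM (y axis, from 0) of the coding (solid) and the retained-intron (hatched) Dusp1 transcript, stacked, for each mouse (x axis, mice 1 to 5 of each group). The solid part is under 7 FPKM in every Ang II mouse and at or above 15.01 FPKM in 4 of 5 Control mice, and the hatched part does not separate the groups.

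The other members did not pass in Ang II vs. Control. Ier3 (chromosome 17, 35821684 to 35822923, plus strand), a survival gene that also bears on ERK signaling, ranged from 14.1 to 21.9 FPKM (median 15.6) in Control, 15.8 to 32.7 FPKM (median 18.6) in Ang II and 13.2 to 39.1 FPKM (median 18.1) in Ang II + QDG. Its log2 fold change was 0.31 (SE 0.25, adjusted p = 0.505 from limma), and the groups overlapped. Zfp36 (chromosome 7, 28376784 to 28380253, minus strand), whose protein binds AU-rich mRNA and recruits deadenylases, had means of 12.6 ± 3.71, 12.9 ± 2.51 and 13.4 ± 2.76 FPKM (SD, n = 5) in the 3 groups in that order. Its log2 fold change of 0.06 (SE 0.18, adjusted p = 0.894 from limma) became −0.03 after quantile normalization. Egr1, the zinc finger factor of the response, had 0.658, 1.79, 0.850, 0.760 and 0.780 FPKM in the Control mice, 1.76, 1.39, 0.902, 1.35 and 0.884 FPKM in Ang II and 0.916, 1.71, 1.46, 1.38 and 1.40 FPKM in Ang II + QDG. It passed the filter through 1 Control, 3 Ang II and 4 Ang II + QDG mice. Its difference of 0.21 (log2, SE 0.16, adjusted p = 0.459 from limma) did not pass, with Control mouse 2 above every mouse of the other groups. Without Control mouse 2 it was 0.34 (SE 0.13, adjusted p = 0.135 from limma), and with pseudocounts of 0.1 and 0.01 it was 0.39 and 0.43.

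Fos and Atf3 were under the filter and are given by exact tests alone. Fos, the partner of the Jun proteins in AP-1, had 0.359, 0.578, 0.493, 0.385 and 0.592 FPKM in the Control mice, 0.640, 0.778, 0.360, 0.476 and 0.314 FPKM in Ang II, and 0.102, 0.922, 0.441, 0.852 and 0.705 FPKM in Ang II + QDG. The groups overlapped in each comparison (exact two-sided permutation p = 0.810 for Ang II against Control, 0.706 for QDG-treated mice against Ang II and 0.595 for QDG-treated mice against Control). Atf3, a stress-induced factor of the ATF family, had 0.267, 0.670, 0.537, 0.403 and 0.459 FPKM in the Control mice, 0.738, 1.60, 0.319, 0.485 and 0.832 FPKM in Ang II, and 0.391, 0.662, 0.439, 0.697 and 0.518 FPKM in Ang II + QDG. Here 3 Ang II mice were above all Control mice and the others were within the Control range, and the exact two-sided permutation p was 0.190.

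In Ang II + QDG vs. Ang II, 1 of the 7 members was higher (Dusp1) and 1 was lower (Junb) at an adjusted p under 0.05, against 0.525% of all genes higher and 1.29% lower. Dusp1 had a mean of 17.6 ± 6.78 FPKM (SD, n = 5) in Ang II + QDG, 2.29 times the Ang II mean, and its log2 fold change was 1.05 (SE 0.24, adjusted p = 0.0402 from limma; exact two-sided permutation p = 0.0159). It also met the study's criterion as applied here to gene sums, which 0.816% of all genes met. Junb had a mean of 7.28 ± 1.62 FPKM (SD, n = 5), 0.698 times the Ang II mean, with a log2 fold change of −0.48 (SE 0.11, adjusted p = 0.0439 from limma; exact two-sided permutation p = 0.0159). For Junb and for the Dusp1 sum, 4 of the 5 Ang II + QDG mice lay beyond all Ang II mice, and the mouse that did not was mouse 4. By the coding Dusp1 transcript, mice 3 and 4 (4.31 and 5.31 FPKM) both lay within the Ang II range of 2.16 to 6.73 FPKM. In mouse 3 the retained-intron transcript made up 68.6% of the sum. Without mouse 4 the Junb fold change was −0.59 (SE 0.08, adjusted p = 0.00717 from limma) and that of Dusp1 was 1.23 (SE 0.21, adjusted p = 0.0354 from limma). The part of the high leukocyte markers of mouse 4 in these values was not tested.

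Both calls were close to the threshold and depended on which mice entered the fit. Junb lost its call in 13 of 15 fits that left out 1 mouse (adjusted p = 0.0506 to 0.106 from limma) and kept it only without Ang II mouse 3 or Ang II + QDG mouse 4. Dusp1 lost its call in 11 of 15 fits (adjusted p = 0.0524 to 0.101 from limma) and kept it only without Control mice 2 or 5, Ang II mouse 3 or Ang II + QDG mouse 4. The fold changes themselves stayed between −0.59 and −0.42 for Junb and between 0.89 and 1.23 for Dusp1 (log2). With the Control mice out of the model neither gene was called (adjusted p = 0.104 from limma for each). At the level of transcripts neither was called (adjusted p = 0.124 for Junb and 0.315 for coding Dusp1 from limma).

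Jun and Ier2 did not pass in this comparison. The Jun mean of 9.08 ± 0.908 FPKM (SD, n = 5) was 0.802 times that of Ang II, with 2 mice under all Ang II mice and a log2 fold change of −0.28 (SE 0.12, adjusted p = 0.268 from limma; exact two-sided permutation p = 0.0397). Ier2 had 4.81, 7.15, 5.67, 5.85 and 6.49 FPKM in Ang II + QDG, with 3 mice under all Ang II mice and a log2 fold change of −0.23 (SE 0.11, adjusted p = 0.328 from limma; exact two-sided permutation p = 0.0714). Ier3, Egr1 and Zfp36 differed by −0.08, 0.08 and 0.05 (log2; adjusted p = 0.923, 0.856 and 0.938 from limma). Ier3 had its highest value of all 15 mice, 39.1 FPKM, in Ang II + QDG mouse 2.

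Against Control, none of the 7 members of the Ang II + QDG mice passed an adjusted p under 0.05 from limma, and 1 (Jun) had an unadjusted p under 0.05. Over all genes 0.129% passed the adjusted threshold and 14.4% the unadjusted. Jun differed by 0.31 (log2, SE 0.12, adjusted p = 0.279 from limma; exact two-sided permutation p = 0.0476), with 3 Ang II + QDG mice above all Control mice. Dusp1 differed by −0.01 (SE 0.24) and Junb by 0.08 (SE 0.11), and the sign of both turned without Ang II + QDG mouse 4, to 0.17 and −0.03. The sign of Dusp1 turned in 6 of 15 fits that left out 1 mouse. Egr1, Ier3, Ier2 and Zfp36 differed by 0.29, 0.24, 0.19 and 0.10 (log2; adjusted p = 0.414, 0.710, 0.443 and 0.841 from limma).

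Because tristetraprolin binds AU-rich letters, the 3′ untranslated regions of the 9 listed members were searched for TATTTAT (with U for T in the RNA), and the windows are shown for the members with a called change and for those with the most copies. Each window is 23 bases around the first copy, 5′ to 3′ on the gene's strand of GRCm38, with the match in capitals (chr4:95049082-95049104 for Jun, chr17:26506162-26506184 for Dusp1, both minus, chr17:35822484-35822506 for Ier3, plus, and chr7:28376969-28376991 for Zfp36, minus).
Jun: cttgtgcaTATTTATaatagcgt
Dusp1: ctggtcctTATTTATttaacacc
Ier3: ctaattaaTATTTATgtatttat
Zfp36: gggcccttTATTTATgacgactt
The letters occurred in 6 of the 9 members: 4 copies in Ier3, 3 each in Dusp1 and Zfp36, 2 in Fos and 1 each in Jun and Atf3. They were not in the regions of Junb, Ier2 and Egr1. Of 10765 tested genes with a 3′ untranslated region, 27.2% had at least 1 copy. Jun, which rose in Ang II, and Dusp1, which fell, both had a copy, and Junb and Ier2, which rose, had none.

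From mouse to mouse within groups no pair of members passed a test of joint variation. Of the 21 pairs among the 7 members tested, 16 had a positive Pearson correlation over the 15 mice after the group means were removed, with a median r of 0.291 and a range of −0.631 to 0.689. None passed a Benjamini-Hochberg adjusted p under 0.05 over the 21 pairs by Pearson's or Spearman's coefficient, and 3 had an unadjusted permutation p under 0.05. The highest was Jun with Ier2 (r = 0.689, permutation p = 0.00455, adjusted p = 0.0956; rho = 0.725, permutation p = 0.00327, adjusted p = 0.0687), and r was 0.676 without the 2 mice farthest from the Jun median. The lowest was Junb with Dusp1 (r = −0.631, permutation p = 0.0118, adjusted p = 0.124; rho = −0.418, permutation p = 0.121, adjusted p = 0.288), with r = −0.566 without the 2 mice farthest from the Junb median, of which Ang II + QDG mouse 4 was 1. The other pair with an unadjusted p under 0.05 was Zfp36 with Dusp1 (r = 0.572, permutation p = 0.0266, adjusted p = 0.186; rho = 0.629, permutation p = 0.0139, adjusted p = 0.145), with r = 0.711 without 2 mice.

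An index, the mean of the 7 members after each was centred and scaled over the 15 mice, ran highest in Ang II + QDG mouse 2 (0.98), Ang II mouse 1 (0.65) and Ang II mouse 3 (0.64), and lowest in Control mouse 4 (−0.76). Of the members, which are part of it, Ier2 (r = 0.869) and Jun (r = 0.835) were nearest to it and Dusp1 (r = −0.161) was farthest. The genes outside the list with the highest Pearson's r with it over 15 mice were Gm20604 (0.909), Tut1 (0.888), Ip6k2 (0.883), Cbl (0.862), Jag2 (0.855), AI597479 (0.846), St6gal1 (0.842), Pom121 (0.836), Ankrd11 (0.835) and Dus3l (0.833). With group means removed their r ranged from 0.708 for Dus3l to 0.852 for Gm20604. These are the top of 12372 genes and are given as a description, since the mice share group, depth and tissue composition.

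Among 41 other immediate early and primary response genes tested, 4 were higher and none lower in Ang II vs. Control, where 4.95% of all genes were higher and 0.994% lower, and their median log2 fold change was 0.192 against 0.083 for all genes. Nr4a1, the orphan nuclear receptor Nur77, ranged from 0.943 to 2.52 FPKM in Control, from 1.58 to 7.63 FPKM in Ang II and from 1.32 to 3.597 FPKM in Ang II + QDG, with a log2 fold change of 1.20 (SE 0.30, adjusted p = 0.0312 from limma). All but 1 of the Ang II mice, mouse 3, were above every Control mouse. Nfkbiz, a nuclear IκB protein gene, was higher by 0.72 (log2, adjusted p = 0.0165 from limma), Ier5 by 0.58 (adjusted p = 0.0227) and Ier5l by 0.54 (adjusted p = 0.0182). Each had every Ang II mouse above every Control mouse, as did 6.49% of all genes. Nfkbiz was low, with 0.606 to 1.09 FPKM (median 0.7125) in Control and 1.45 to 2.36 FPKM in Ang II. It passed the filter mainly through the infused mice. Leaving out 1 mouse ended the call of Nr4a1 in 8 of 15 fits (without Ang II mice 1, 2, 4 or 5 or Control mice 1, 3, 4 or 5; adjusted p = 0.0511 to 0.0750 from limma), that of Ier5 in 1 (without Control mouse 3; 0.0594) and those of Nfkbiz and Ier5l in 0. Jund, the AP-1 subunit that is not strongly inducible, lay far above the AP-1 members, with means of 85.8 ± 7.29 FPKM (Control) and 98.5 ± 18.5 FPKM (Ang II; SD, n = 5; log2 0.18, adjusted p = 0.365 from limma), and Fosl2 differed by 0.49 (adjusted p = 0.0846). Of the list, 9 genes were not listed in the files, among them Egr2, Egr3, Npas4 and Fosl1.

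The other genes of the pathway were counted in the same way. None of 30 upstream genes tested (SRF, TCF and CREB factors, MAP kinases and the receptor Agtr1a) passed in Ang II vs. Control by limma, 3 had an unadjusted p under 0.05 (22.7% of all genes did), and Srf itself was the closest with a log2 difference of 0.22 (adjusted p = 0.0867). Agtr1a, the receptor of the infused peptide, had means of 14.9 ± 8.10 FPKM (Control) and 20.3 ± 1.90 FPKM (Ang II; SD, n = 5; log2 0.62, adjusted p = 0.258). Of 15 tested genes of a list of other dual specificity phosphatases, Sprouty and Zfp36 family genes and Ier3ip1, Spry2 (log2 0.48, adjusted p = 0.0163) and Dusp7 (0.35, adjusted p = 0.0227), both brakes on ERK signaling, were higher and none was called lower. Of 19 bZIP partners, Mafk (0.39, adjusted p = 0.0260) and Atf4 (0.44, adjusted p = 0.0488) were higher. Of 14 target genes, Vegfa (0.41, adjusted p = 0.0309) and the EGR1 corepressor Nab2 (0.51, adjusted p = 0.0360) were higher, and Cxcl10, a chemokine whose mRNA is AU-rich, was lower (−1.07, adjusted p = 0.0111). The same shares of all genes, 4.95% higher and 0.994% lower, stand beside these counts. The calls in the phosphatase, bZIP and target lists numbered 1, 0 and 1 after quantile normalization. Of the 15 fits that left out 1 mouse, 13 lost the call of Atf4 (all but those without Ang II mouse 1 or Control mouse 4; adjusted p = 0.0564 to 0.111 from limma) and 5 that of Mafk (without Ang II mice 1, 2 or 5 or Control mice 1 or 3; 0.0535 to 0.0665). The call was lost in 7 fits for Vegfa (without Ang II mice 2, 3 or 5 or Control mice 1, 3, 4 or 5), 8 for Nab2 (without Ang II mice 1, 2, 4 or 5 or Control mice 1, 3, 4 or 5), 2 for Dusp7 (without Control mice 1 or 3) and 0 for Spry2 and Cxcl10, with adjusted p of at most 0.0798 from limma.

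With QDG added to Ang II, Ier5l was the only gene of these 5 lists that passed (log2 −0.55, SE 0.12, adjusted p = 0.0329 from limma). It ranged from 5.01 to 7.65 FPKM in Ang II and from 3.29 to 4.20 FPKM in Ang II + QDG, with no overlap, and Control ranged from 2.94 to 4.51 FPKM. Over all genes 0.525% were called higher and 1.29% lower, and 3.44% had every Ang II + QDG mouse below every Ang II mouse. The Ier5l call was lost in 7 of 15 fits that left out 1 mouse (Ang II mice 2, 4 or 5 or Ang II + QDG mice 2, 3, 4 or 5; adjusted p = 0.0506 to 0.0797 from limma), and with the Control mice out of the model (adjusted p = 0.0637 from limma). Nr4a1 differed by −1.01 (adjusted p = 0.0971), Dusp4 by −0.63 (adjusted p = 0.0813) and Srf by −0.23 (adjusted p = 0.120). In the other direction Gadd45g differed by 0.71 (adjusted p = 0.219), Mapk3, the kinase ERK1, by 0.29 (adjusted p = 0.171) and Rps6ka3, a kinase downstream of ERK, by 0.74 (adjusted p = 0.253). The list medians were −0.128 for the other immediate early genes, −0.001 for the upstream genes, −0.064 for the phosphatase list, −0.053 for the bZIP partners and 0.005 for the targets, against −0.019 for all genes. In Ang II + QDG vs. Control none of the 5 lists had a called gene by limma, and 8 of 41, 6 of 30, 5 of 15, 4 of 19 and 5 of 14 genes had an unadjusted p under 0.05. Over all genes these shares were 0.129% at the adjusted and 14.4% at the unadjusted threshold.

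**Figure D4:**
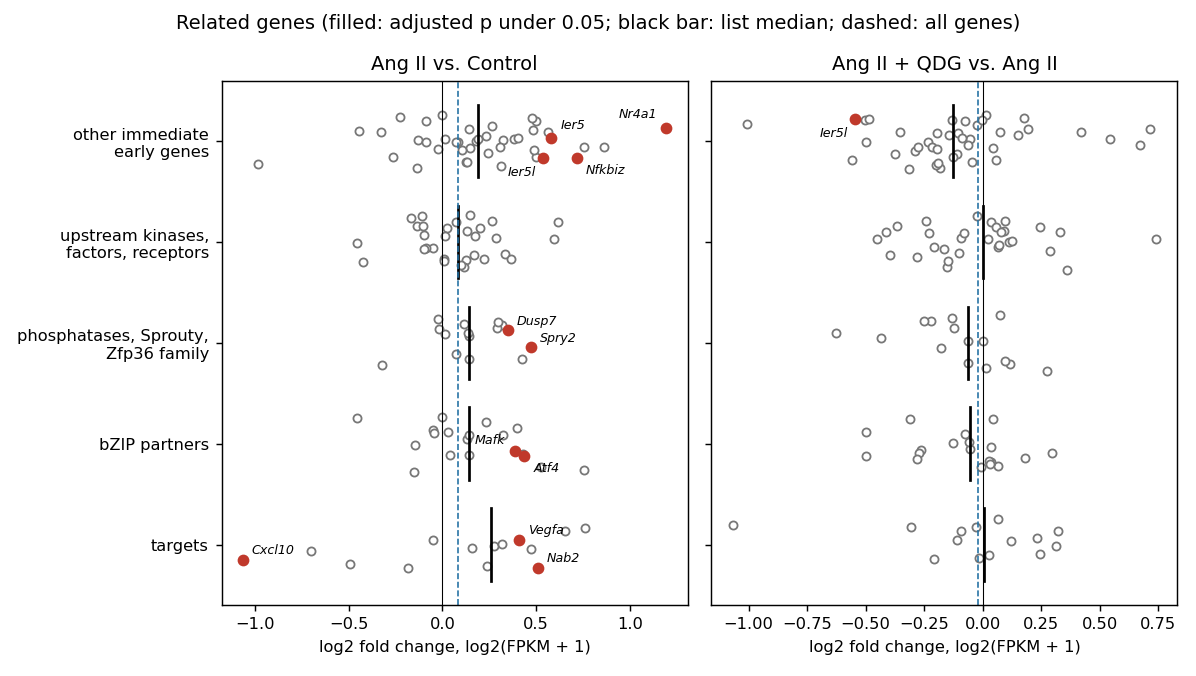
Log2 fold change from log2(FPKM + 1) values (x axis) of the genes of 5 related lists (rows) for Ang II against Control (left) and QDG-treated mice against Ang II (right), filled and named where the adjusted p from limma was under 0.05. The black bar is each list's median, at 0.192 and −0.128 for the other immediate early genes, and the dashed line is the median of all genes, at 0.083 and −0.019; vertical scatter within a row has no meaning.

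Markers of other cell types moved with the groups in part. Of 10 vascular and mural markers, Tagln (log2 0.59, adjusted p = 0.0326 from limma) and Pdgfrb (1.13, adjusted p = 0.0468) were higher in Ang II than in Control. Over all genes 4.95% were called higher and 0.994% lower. These calls were lost in 7 and 11 of 15 fits without 1 mouse. Pdgfrb was near the floor, with 0 to 1.34 FPKM in Control and 2.12 to 2.72 FPKM in Ang II. In all, 8 of the 10 had a log2 fold change above 0, while Emcn (−0.37) and Myh11 (−0.08) were below. The summed level was 94.7 to 122 FPKM in the Control mice, 101 to 173 FPKM in Ang II and 114 to 145 FPKM in Ang II + QDG. The 10 kidney markers summed to 3568 to 4156 FPKM (Control), 3989 to 4613 FPKM (Ang II) and 4198 to 4464 FPKM (Ang II + QDG). Of 17 leukocyte markers 8 were listed and 5 tested, none passed, the defining genes Cd3e, Cd4, Cd8a and Itgam were not listed, and the sum was 16.2 to 29.9 FPKM in the Control mice, 12.3 to 21.1 FPKM in Ang II and 18.9 to 27.2 FPKM in 4 of the Ang II + QDG mice, with 132 FPKM in mouse 4. The red cell markers summed to 545 to 1362 FPKM in the Control mice, 1115 to 1943 FPKM in Ang II and 1557 to 2818 FPKM in Ang II + QDG. Of the 5 tested, none was called in Ang II vs. Control by limma (3 had an unadjusted p under 0.05), and in Ang II + QDG against Control the globin gene Hba-a1 was called (log2 1.17, SE 0.19, adjusted p = 0.0257 from limma), where 0.129% of all genes were, and 5 of 5 had an unadjusted p under 0.05. The Hba-a1 call was lost in 5 of 15 fits (without Ang II + QDG mice 1, 2 or 3 or Control mice 3 or 4), and it shares near-identical sequence with Hba-a2, so its value is uncertain. The adipose markers summed to 26.7 to 149, 25.1 to 250 and 40.1 to 86.0 FPKM. Of 9 adrenal markers Star alone was listed, near 1 FPKM. The part of these markers, and of the mitochondrial share that was lowest in Ang II, in the values of Jun, Junb, Ier2 and Dusp1 was not tested.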

How the data were processed

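Kidney RNA from 15 mice was depleted of rRNA and sequenced as libraries that carry no strand mark, as labelled; the study's methods also name a poly(A) isolation step after the depletion. The values that the authors deposited, 1 for each transcript in each mouse, carry no unit and were taken as FPKM, because value times transcript length was a whole multiple (within 0.1) of 1 constant per mouse for 98.7% to 98.8% of values under 200 reads. The build per the labels was mm10, and the aligner and quantifier are not given in the sources used here. Transcripts listed in all 15 files were mapped to GENCODE mouse release M21, and FPKM were summed per gene. Genes reaching 1 FPKM in 5 or more mice were tested with limma 3.58.1 (R 4.3.3; lmFit, eBayes with trend, 12 residual degrees of freedom) on log2(FPKM + 1), which understates changes of low genes, with Benjamini-Hochberg adjustment over all 12372 genes. The script was tested on simulated data. Single members were also compared by exact two-sided permutation of 252 labelings, and correlations by 100000 resamples. Replicates were separate mice, whose numbers follow listing order and pair nothing. Named genes were all members, the 10 genes most like their index, and from each list the called genes (at most 8) or the 3 smallest p; values for Jund, Fosl2 and Agtr1a were added after they were seen. The members and lists were chosen with earlier results of these data known. Alternatives were other pseudocounts, no filter, quantile and median scaling, transcripts of any file, the most abundant transcript, only the 2 groups compared, no trend and leaving out each mouse. Promoters came from RefSeq tables (GRCm38.p6); Ier2 has no entry and Egr1 was not searched. Results for some marker genes are not reported here.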

Additional observations from a re-analysis of the deposited data

Results flagged for a closer look

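In 27 groups of 5 mice (9 members in 3 groups), 4 had a mouse whose gap to its nearest neighbour exceeded 0.71 of the range, Dixon's critical value for 5; chance gives about 1 in 20 such groups. Junb in Ang II mouse 3 was the lowest of its group at 9.03 FPKM, while the other Ang II mice had 10.5 to 11.01 FPKM. Junb in Ang II + QDG mouse 4 was the highest of its group at 10.1 FPKM against 5.91 to 6.97 FPKM, and this kidney also had the high S100a8 and S100a9 values. Egr1 in Control mouse 2 was 1.79 FPKM against 0.658 to 0.850 FPKM in the other Control mice, and that mouse also had the lowest Dusp1 of its group. Ier3 in Ang II + QDG mouse 2 was 39.1 FPKM against 13.2 to 19.3 FPKM.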

How the results depend on the processing

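The members called in Ang II vs. Control numbered 4, 3 under quantile normalization, median scaling or a model of only the 2 groups (Ier2 lost in each), and 2 to 4 when 1 mouse was left out; the member past the fold criterion numbered 0 to 1. In Ang II + QDG vs. Ang II the 2 calls became 0 in a model of only the 2 groups and 0 to 2 with 1 mouse left out, and the fold criterion 0 to 1. With the most abundant transcript, in a model over 28812 transcripts, none of the 4 was called in Ang II vs. Control (adjusted p = 0.0564 for Jun, 0.0509 for Junb, 0.105 for Ier2 and 0.107 for Dusp1 from limma), nor the 2 with QDG. In Ang II + QDG vs. Control no setting called a member. For the lists in Ang II vs. Control, the model of only the 2 groups left 2 other immediate early genes, 1 phosphatase list gene and 0 bZIP partners, quantile and median scaling each left 1 phosphatase list gene, 0 bZIP partners and 1 target, and pseudocounts of 0.1 and 0.01, no filter and no trend each left 1 bZIP partner. Leaving out 1 mouse gave 2 to 6 other immediate early genes, 0 to 1 upstream, 1 to 3 phosphatase, 0 to 3 bZIP and 1 to 3 target genes there, and with QDG added to Ang II 0 to 2 other immediate early genes and 0 to 1 bZIP partner; the model of only the 2 groups gave 0. In Ang II + QDG vs. Control 1 target gene was called under quantile, median scaling or transcripts of any file, and 0 to 1 with 1 mouse left out. With group means left in, 3 correlations passed. Signs turned for Zfp36 in Ang II vs. Control (−0.026 by quantile, −0.040 by median scaling, −0.046 to 0.2 with 1 mouse left out), Junb in Ang II + QDG vs. Control (−0.001 by median scaling, −0.032 to 0.138), Dusp1 there (−0.175 to 0.167), and Ier3 (−0.312 to 0.077) and Zfp36 (−0.050 to 0.131) in the comparison of QDG with Ang II alone; none of these was called, and the cause was not tested. Over all genes, the calls higher and lower in Ang II + QDG vs. Ang II were 65 and 159, and 97 and 97 after quantile normalization. Depth limits Fos and Atf3 most, at 15 to 251 reads.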
